A study of Homo sapiens with 21 samples.

Results

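The RhoGAP and RhoGEF genes described here are those whose symbol is ARHGAP or ARHGEF followed by a number and, for some, 1 letter. They were taken by name from the HNRNPK-bound RNA clusters of MDA-MB-231 cells, an established human triple-negative breast cancer line. Of 18322 genes with at least 1 cluster in any of 4 libraries, 55 bore such a name, 33 of them RhoGAPs and 22 RhoGEFs, and they held 4509 of 778762 clusters. A GRCh37 annotation holds 8 more genes of this naming pattern, and no cluster bore their symbols. They were ARHGAP16P, ARHGAP36, ARHGAP45, ARHGEF5, ARHGEF15, ARHGEF25, ARHGEF34P and ARHGEF37. Whether the clusters were named from the same annotation is not given in the sources used here. Clusters of these genes under another symbol would be missed. The 4 libraries came from parental MDA-MB-231 cells and from MDA-MB-231 cells in which KRT19, the gene of the filament protein keratin 19, had been knocked out by CRISPR/Cas9 (KRT19 KO). From each cell line there was 1 cytoplasmic and 1 nuclear library. Whether the KO cells were 1 clone is not given in the sources used here.

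HNRNPK is an RNA-binding protein with KH domains that prefers C-rich, single-stranded RNA and moves between nucleus and cytoplasm. In PAR-CLIP, cells incorporate 4-thiouridine into their RNA, ultraviolet light crosslinks the RNA to bound proteins, the protein is immunoprecipitated, and crosslinked positions read as T-to-C conversions. A cluster is a stretch of overlapping reads called from such conversions. The antibody is described as recovering HNRNPK and a putative splice form, so reads of the 2 forms cannot be told apart. The small GTPases RHOA, RAC1, CDC42 and their relatives switch actin remodelling, adhesion and migration on when bound to GTP. RhoGEFs load them with GTP, and RhoGAPs speed the hydrolysis of that GTP and turn them off. Both families are large and differ in which GTPases they act on.

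With 1 library per condition there was no replicate, so no difference below was tested against replicate spread and no p-value is given. Intervals are 95% limits, by Wilson for shares and exact for ratios of reads. They cover counting error only, and reads may include copies of 1 molecule. The libraries held 177530 to 201726 clusters and 3252800 to 6216226 reads in clusters. Clusters with fewer than 5 reads were not listed, so a gene without a cluster had none above that limit. KRT19 itself had 1 cluster in each cytoplasmic library (7 reads in parental and 5 in KRT19 KO cells) and none in the nuclear libraries, too few to check the genotype. The nuclear transcript NEAT1 had a lower share of reads in cytoplasm than in nucleus in both lines (ratio 0.29 in parental and 0.19 in KRT19 KO cells), whereas MALAT1, also nuclear, had a higher one (1.39 and 1.54). VIM, CD44, EGFR and AXL, genes active in this line, had clusters in all 4 libraries. The parental cytoplasmic library stood apart. It had 0 clusters on sequences outside the assembled chromosomes, against 232 in KRT19 KO cytoplasm and 269 and 221 in the nuclei. Whether all 4 libraries were aligned to the same form of the reference is not given in the sources used here. In 65 windows of 200 kb it held at least 15 clusters where the other 3 libraries held none, and no other library had such windows. ARHGAP23 and ARHGAP27 together had 30 clusters and 644 reads there and none elsewhere. Their annotated intervals held no cluster of any annotation in the other 3 libraries, so these zeros cannot be read as absent binding. The part that these windows play in other results was not tested, and counts of genes past 2-fold that rest on these 2 are followed by the count without them.

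The sites below carried the most reads, 1 per gene, first among sites found in all 4 libraries outside 3′UTRs and then among 3′UTR sites. They are examples of the bound RNA and not always the gene's site with most reads. For ARHGEF28, ARHGAP29 and ARHGEF12 an intronic site not found in all 4 libraries had more reads in sum, 559, 511 and 299. A coding site of ARHGAP5 not found in all 4 had 1048. Each is the middle 30 nucleotides of the cluster, written 5′ to 3′ on the transcript strand as DNA, with runs of at least 3 C in capitals. Coordinates are those of hg19 (GRCh37), and reads are given for the 2 cytoplasmic libraries and then the 2 nuclear ones, parental before KRT19 KO each time. The ARHGAP11A site is intronic, at chr15:32914082-32914111 on the plus strand, with 415, 248, 660 and 377 reads.
ARHGAP11A intron: ttatccttaattcatttCCCCtccatctaa
The ARHGAP5 site is coding, at chr14:32619189-32619218 on the plus strand, with 167, 720, 28 and 40 reads.
ARHGAP5 coding: cagatcctttaattccatattctcttcatc
The ARHGAP11B site is annotated as a processed transcript, at chr15:31049866-31049895 on the plus strand, with 255, 82, 372 and 203 reads.
ARHGAP11B processed transcript: tttcctccaatttttcatactccatCCCCa
The ARHGAP29 site lies in a transcript annotated for nonsense-mediated decay, at chr1:94634556-94634585 on the minus strand, with 196, 155, 13 and 16 reads.
ARHGAP29 nonsense-mediated decay: attaatacttcctacaataactgtatcatg
The ARHGEF28 site is intronic, at chr5:73192603-73192632 on the plus strand, with 55, 59, 102 and 98 reads.
ARHGEF28 intron: ctttctCCCCCaccaaaactttcactaacg
The ARHGAP32 site is coding, at chr11:128842618-128842647 on the minus strand, with 51, 176, 34 and 50 reads.
ARHGAP32 coding: cctaatttacctagcgataaaatctaCCCt
The ARHGEF12 site is intronic, at chr11:120239582-120239611 on the plus strand, with 49, 44, 124 and 27 reads.
ARHGEF12 intron: cctCCCtcctttcaCCCtccaCCCtcaaat

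Most reads of the 3′UTR sites below were cytoplasmic, but reads here are not scaled to depth, and the cytoplasmic libraries were deeper. Scaled to depth, the ARHGEF2 site had no higher share in cytoplasm than in nucleus in either line. The 3′UTR sites follow in the same order of libraries. That of ARHGAP5, at chr14:32625165-32625194 on the plus strand, had 787, 909, 22 and 0 reads.
ARHGAP5 3′UTR: aaaaatatccaaaaaaCCCattgctaatat
That of ARHGEF2, at chr1:155917164-155917193 on the minus strand, had 174, 384, 135 and 222 reads.
ARHGEF2 3′UTR: ttctCCCtttctccgtccttcatggaagcc
That of ARHGAP12, at chr10:32096054-32096083 on the minus strand, had 273, 451, 20 and 54 reads.
ARHGAP12 3′UTR: caaaattcattataaCCCCaaaataaCCCC
That of ARHGAP18, at chr6:129899302-129899331 on the minus strand, had 324, 243, 0 and 7 reads.
ARHGAP18 3′UTR: cattcttttctcctaaaatcatatatactg
That of ARHGAP32, at chr11:128837313-128837342 on the minus strand, had 152, 222, 24 and 0 reads.
ARHGAP32 3′UTR: tttcattccataactcttaataatactcaa
That of ARHGAP11A, at chr15:32931322-32931351 on the plus strand, had 190, 143, 0 and 0 reads.
ARHGAP11A 3′UTR: ttatattttaaattattacaaattacacat
That of ARHGAP23, at chr17:36668358-36668387 on the plus strand, had 253, 0, 0 and 0 reads and lies in 1 of the intervals without any cluster in the other libraries.
ARHGAP23 3′UTR: cctCCCtCCCCCattcttttattgtaaata
Runs of C stood in some of these sites, among them ARHGEF12 and ARHGAP12 with more than 1 run each, and were absent from others such as the ARHGAP18 3′UTR site.

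HNRNPK clusters were found on RhoGAP and RhoGEF transcripts in every library. The parental cytoplasmic library held 1200 of them on 44 genes, the KRT19 KO cytoplasmic library 854 on 42, the parental nuclear library 1335 on 45 and the KRT19 KO nuclear library 1120 on 48. RhoGAPs had 744, 552, 769 and 657 of these clusters in that order of libraries, and RhoGEFs 456, 302, 566 and 463. The genes' share of all cluster reads was 0.444% (0.438 to 0.449) in parental and 0.292% (0.287 to 0.296) in KRT19 KO cytoplasm, 0.701% (0.692 to 0.710) in parental and 0.566% (0.558 to 0.574) in KRT19 KO nuclei. The share was thus lower in cytoplasm than in nucleus in both lines, and within each fraction it was lower for KRT19 KO. These values describe crosslinked reads, and without an RNA measurement beside them the amount of RNA and the binding per RNA cannot be told apart.

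Clusters were spread unevenly over the genes. A total of 34 genes had a cluster in all 4 libraries (61.8%, against 51.9% of all genes), 8 had one in a single library (6 without ARHGAP23 and ARHGAP27), and 18 had fewer than 10 clusters in all. The gene with the most clusters held 13.8% of them, the top 3 held 28.9% and the top 10 held 58.5%. The median gene of the families had 16, 14.5, 23 and 16.5 clusters in the 4 libraries, against 5, 5, 5 and 4 for the median of all genes with a cluster. Per length, the values ran from 0.00643 to 2.02 clusters per kb summed over the 4 libraries, with a median of 0.421 over 52 genes. Across these genes, which share their libraries, cluster number and gene length had a Spearman correlation of 0.36. A cluster itself looked like those of other genes, with a median of 10 or 11 reads in each library both for these genes and for all.

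**Figure D1:**
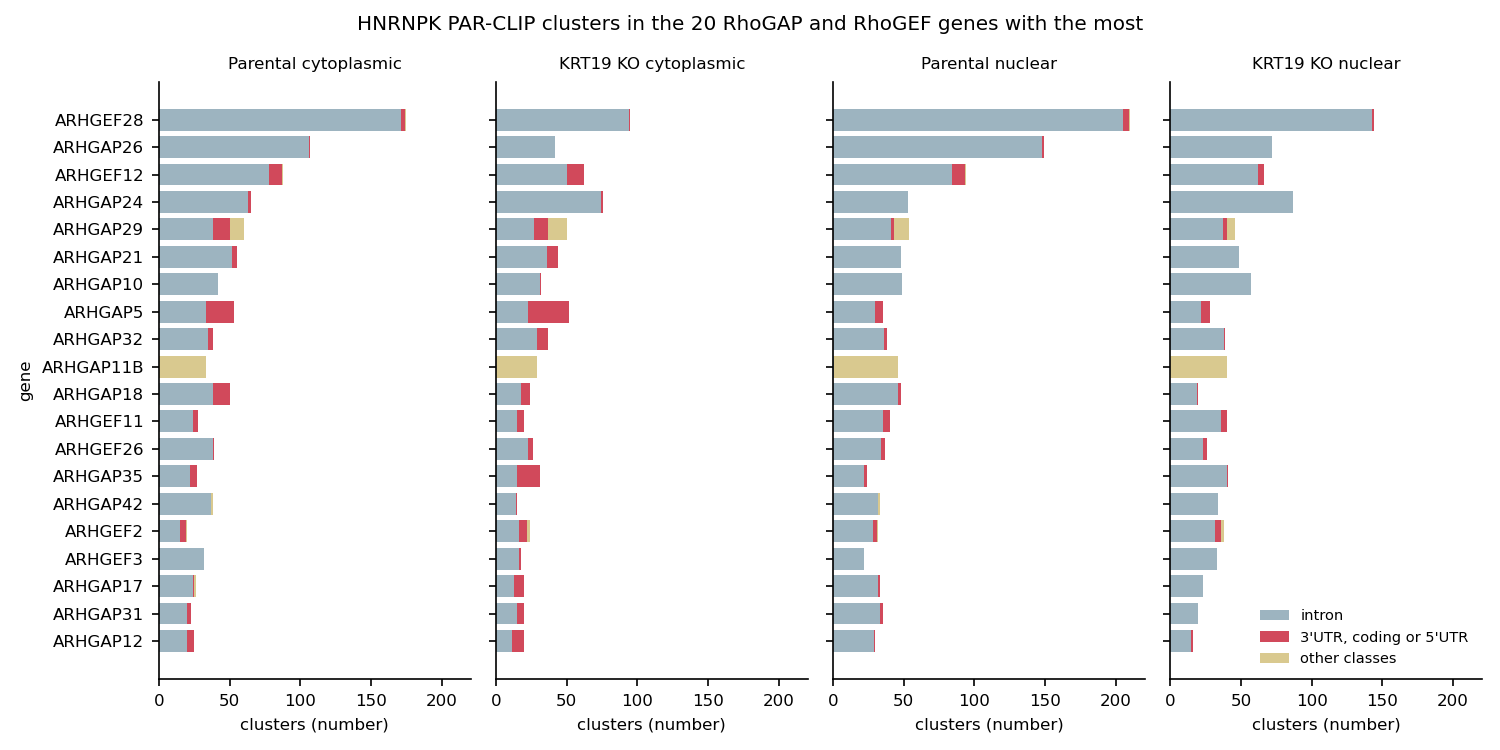
Number of HNRNPK clusters per gene (bar length) in each of the 4 libraries for the RhoGAP and RhoGEF genes with the most clusters, with bars split into introns, exonic classes (3′UTR, coding and 5′UTR) and other classes. ARHGEF28 stood first in every library, with 175 and 95 clusters in parental and KRT19 KO cytoplasm and 210 and 144 in the nuclei, and ARHGAP5 had the most exonic clusters in both cytoplasmic libraries.

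Most clusters on these genes were intronic, in a larger share than over all genes. Introns held 85.3% and 76.6% of the clusters in parental and KRT19 KO cytoplasm and 91.2% and 91.9% in the nuclei, against 74.4%, 63.4%, 83.7% and 82.1% of all clusters assigned to genes. The 3′UTR share was 6.5% (5.24 to 8.04) and 9.72% (7.91 to 11.9) in parental and KRT19 KO cytoplasm and 2.70% (1.95 to 3.71) and 2.14% (1.44 to 3.17) in the nuclei. Over all genes it was 13.0%, 20.4%, 4.80% and 5.37%. Coding exons held 37, 65, 15 and 15 clusters, or 3.08%, 7.61%, 1.12% and 1.34%. In all, 33 of the 55 genes had a 3′UTR cluster in at least 1 library.

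Counted by reads, 3′UTRs weighed more in the cytoplasm. They took 18.5% of the genes' reads in parental and 29.6% in KRT19 KO cytoplasm, against 2.98% and 3.15% in the nuclei. Over all genes the shares were higher, at 37.8% and 53.6% in cytoplasm and 6.42% and 6.89% in the nuclei. A cytoplasmic 3′UTR cluster held on average 58.6 reads in parental and 64.7 in KRT19 KO cells, while an intronic cluster held 16.6 and 13.2. Over all genes these means were 81.5 and 104 for 3′UTRs and 19.1 and 16.2 for introns. In the nuclei 3′UTR clusters averaged 20.6 and 24.1 reads, on 36 and 24 clusters, beside the intronic 18.1 and 15.9. Coding reads were 4.55% and 16.9% of the genes' reads in parental and KRT19 KO cytoplasm, and 0.811% and 1.22% in the nuclei. Over all genes they were 2.71% and 6.65% in cytoplasm and 2.82% and 5.55% in the nuclei.

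**Figure D2:**
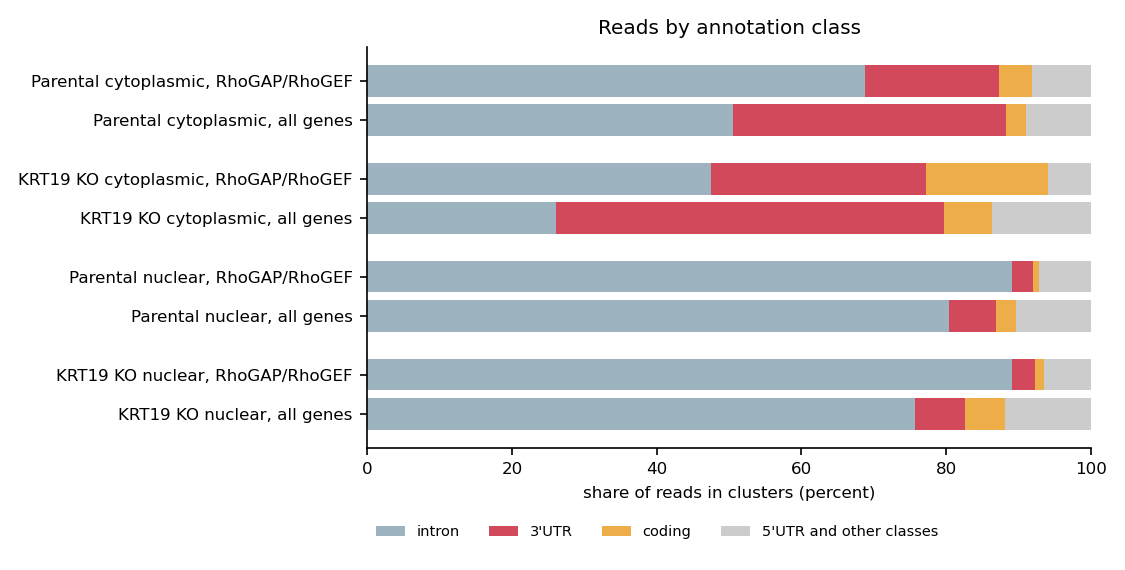
Share of cluster reads (percent) by annotation class in each library, for RhoGAP and RhoGEF genes beside all gene-assigned clusters. Introns took 68.8% and 47.5% of the families' reads in parental and KRT19 KO cytoplasm and 89.0% and 89.1% in the nuclei. Over all genes they took 50.6%, 26.0%, 80.4% and 75.7% in the same order.

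Reads were then put on a common scale, as reads per 1000000 cluster reads of the library (RPM), and compared between fractions. Intronic RPM over these genes was 0.489 (0.479 to 0.499) times as high in parental cytoplasm as in parental nuclei, and 0.275 (0.268 to 0.282) times in KRT19 KO cells. For 3′UTRs the ratio ran the other way, at 3.94 (3.64 to 4.26) and 4.85 (4.45 to 5.30), and for coding exons it was 3.56 (3.06 to 4.15) and 7.16 (6.25 to 8.23). Over all genes the intronic ratios were 0.632 and 0.386, the 3′UTR ratios 5.92 and 8.73, and the coding ratios 0.969 and 1.34. Between cell lines, cytoplasmic intronic RPM in KRT19 KO was 0.454 (0.442 to 0.466) times that of parental cells, while 3′UTR RPM was 1.05 (1.01 to 1.09) times and coding RPM 2.44 (2.28 to 2.61) times. Over all genes these 3 ratios were 0.544, 1.5 and 2.59. In the nuclei the families' ratios of KRT19 KO to parental were 0.808 for introns, 0.851 for 3′UTRs and 1.21 for coding exons.

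Gene by gene, more RhoGAP and RhoGEF genes had a lower than a higher cytoplasmic share. A ratio was formed where a gene had at least 100 reads in the 2 libraries together, and 2-fold was the limit for a call. In parental cells 15 of 33 genes were at least 2-fold lower in cytoplasm than in nucleus, where 31.3% of all genes were, and 3 were at least 2-fold higher, where 19.1% were. In KRT19 KO cells 23 of 30 were lower, against 38.0% of all genes, and 1 was higher, against 26.1%. The median gene of the whole library had a log2 ratio of -0.49 in parental and -0.48 in KRT19 KO cells. Relative to that median, 8 of the genes were lower and 5 higher, or 3 higher without ARHGAP23 and ARHGAP27, in parental cells (background 17.4% and 25.3%), and 18 lower and 2 higher in KRT19 KO cells (25.5% and 32.7%). Without ARHGAP23 and ARHGAP27, the 3 higher genes in parental cells came to 1, ARHGAP5. In both lines 13 of 29 genes were lower (20.2% of all genes) and 1, ARHGAP5, was higher (14.7%).

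RhoGAPs and RhoGEFs are given apart as a description of these libraries, first in parental cells. Of 22 RhoGAPs 8 were lower and 3 higher, with a median ratio of 0.690, and without ARHGAP23 and ARHGAP27 8 of 20 were lower and 1 higher, with a median of 0.634. Of 11 RhoGEFs 7 were lower and 0 higher, with a median of 0.396. In KRT19 KO cells the median was 0.352 over 19 RhoGAPs, of which 12 were lower. Over 11 RhoGEFs it was 0.330, and all 11 were lower. Of all genes 31.3% were lower and 19.1% higher in parental cells, and 38.0% and 26.1% in KRT19 KO cells. With intronic reads alone, 18 of 18 RhoGAPs and 11 of 11 RhoGEFs were lower in KRT19 KO cells (74.7% of all genes). Their medians were 0.273 and 0.270. In parental cells these medians were 0.445, without ARHGAP23 and ARHGAP27, and 0.354.

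The annotation class split these ratios. With intronic reads alone, 17 of 31 genes were at least 2-fold lower in parental cytoplasm than nucleus (48.2% of all genes). The 2 that were higher (3.76%) were ARHGAP23 and ARHGAP27, which left 17 of 29 lower and 0 higher without them. In KRT19 KO cells 29 of 29 were lower (74.7%) and 0 higher (3.18%). With 3′UTR, coding and 5′UTR reads alone, 9 of 11 were higher in parental cells (77.1%), or 8 of 10 without ARHGAP23, and 0 lower (5.82%), and in KRT19 KO cells 10 of 12 were higher (85.0%) and 0 lower (2.78%). These shares lay near the background for exonic reads. For 5 genes at least 2-fold lower in KRT19 KO cytoplasm by all reads, exonic reads alone were higher there than in the nucleus. The ratios were 5.66 (4.07 to 8.08) for ARHGEF12, 23.8 (10.0 to 73.9) for ARHGAP35, 1.36 (1.06 to 1.76) for ARHGEF11 and 1.24 (1.07 to 1.46) for ARHGEF2, and ARHGAP21 had 239 cytoplasmic and no listed nuclear exonic reads. ARHGAP35 and ARHGEF11 were named after their values were seen. The median exonic ratio of the families was 7.81 (parental; 5.84 without ARHGAP23) and 8.72 (KRT19 KO), beside 6.21 and 8.81 for all genes.

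The comparison of KRT19 KO with parental cells asks how bound RNA differs when keratin 19 is missing. In cytoplasm 12 of 32 genes were at least 2-fold lower in KRT19 KO cells (20.2% of all genes) and 1 was higher (19.6%). The lower set included ARHGAP23 and ARHGAP27, whose loci were blank in the KRT19 KO library, and numbered 10 without them. The families' median ratio was 0.676, or 0.715 without these 2, and that of all genes 0.957. With intronic reads alone, 13 of 28 were lower (37.5%), or 11 of 26 without these 2, and 1 higher (5.97%). With exonic reads alone, 6 of 16 were higher (42.8%), namely ARHGAP17, ARHGAP21, ARHGAP29, ARHGAP31, ARHGAP35 and ARHGEF2, and 2 were lower (9.14%), ARHGAP19 and ARHGAP23. ARHGAP17, ARHGAP31 and ARHGAP35 were named after their values were seen.

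In nuclei the 2 cell lines were closer. Of 34 genes 5 were at least 2-fold lower in KRT19 KO nuclei (15.7% of all genes) and 3 higher (11.2%), and the median ratio was 0.945 beside 0.928 for all genes. With intronic reads alone, 4 of 32 were lower (16.6%) and 4 higher (9.81%). Of the 5 genes with enough exonic reads 1, ARHGEF12, was lower (20.8%) and 0 higher (22.4%). In both fractions 4 of 30 genes were lower in KRT19 KO cells (5.46% of all genes), ARHGAP18, ARHGAP19, ARHGAP22 and ARHGAP26, and 0 were higher (3.78%). The shares of the families that were called in nuclei were near the background.

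**Figure D3:**
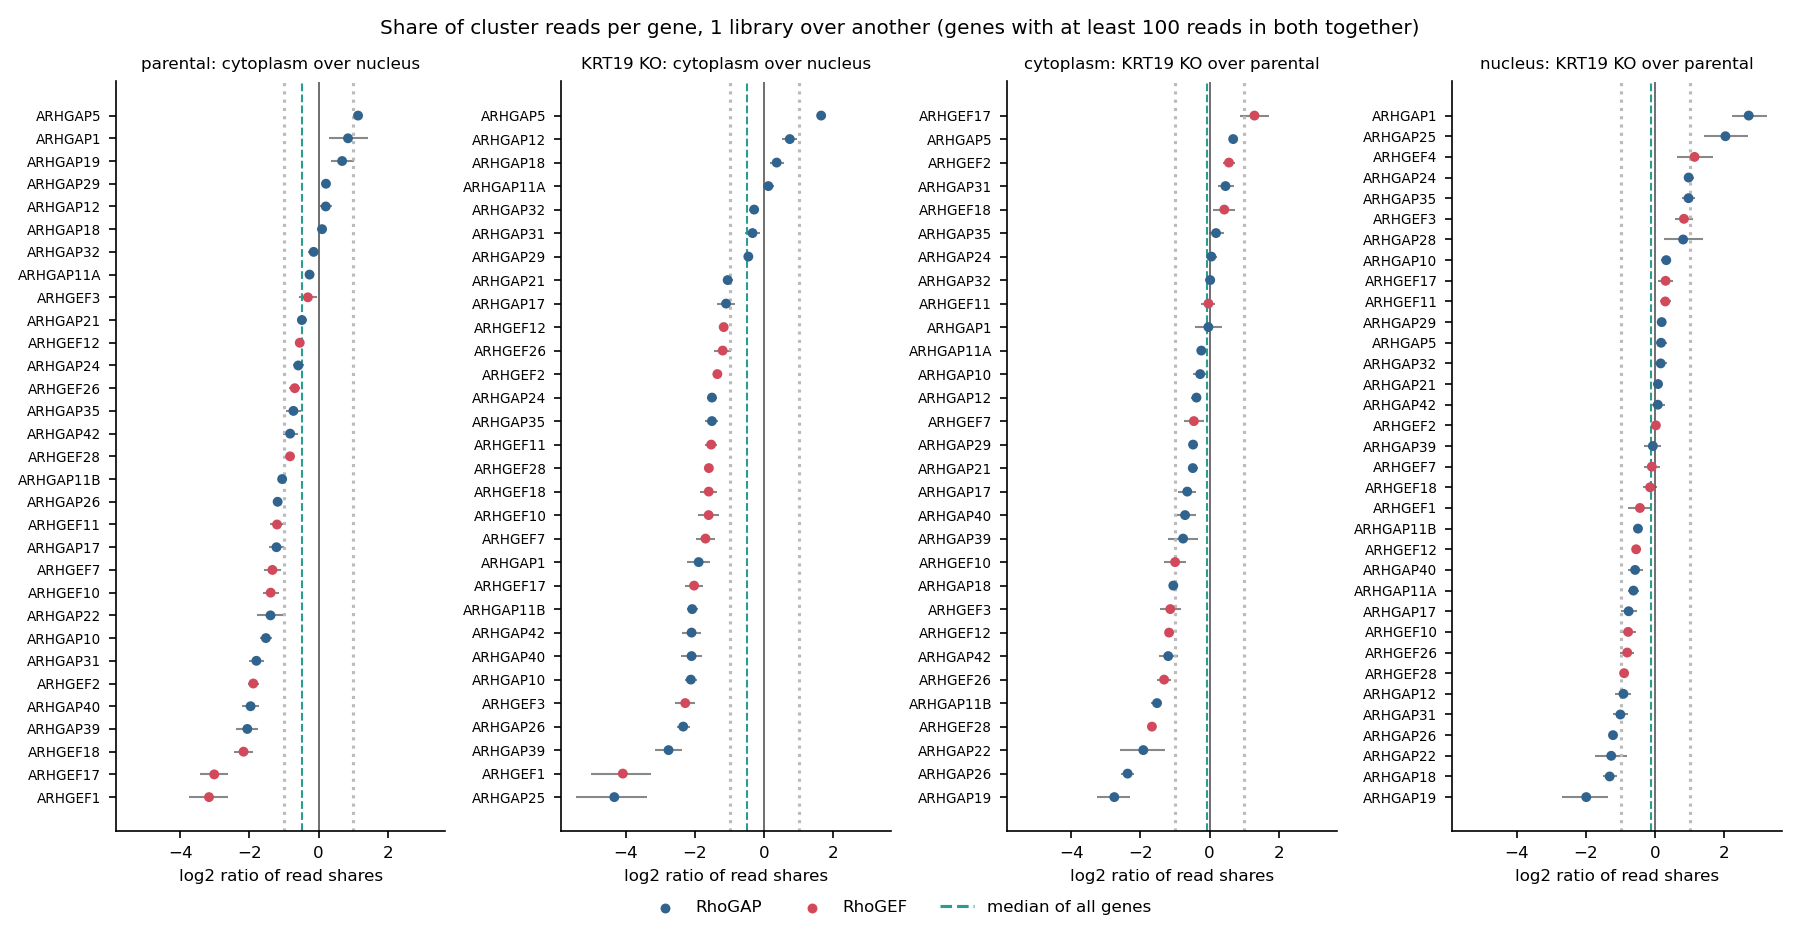
Log2 ratio of read shares per gene in the 4 comparisons, with 95% exact intervals (counting error only), for RhoGAPs and RhoGEFs with at least 100 reads in the 2 libraries and reads in both. Dotted lines mark 2-fold and the dashed line the median of all genes. ARHGAP5 stood highest in both comparisons of cytoplasm over nucleus.

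Among the RhoGEFs, ARHGEF28 had the most clusters, nearly all of them intronic. Its product, p190RhoGEF, activates RHOA and can itself bind RNA. The gene lies on the plus strand at chr5:72921983-73237818 and spans 316 kb. It held 624 clusters and 14093 reads, at 1.98 clusters per kb over the 4 libraries, and ranked 34th of all genes by clusters in parental cytoplasm, 71st in KRT19 KO cytoplasm, 21st in parental nuclei and 39th in KRT19 KO nuclei. In every library 99.2% to 99.5% of its reads were intronic. Its RPM was 835 in parental and 263 in KRT19 KO cytoplasm, and 1481 in parental and 795 in KRT19 KO nuclei. The parental nuclear library was highest and the KRT19 KO cytoplasmic library lowest. The ratio of cytoplasm to nucleus was 0.564 (0.542 to 0.587) in parental cells and 0.331 (0.311 to 0.352) in the KO, and that of KRT19 KO to parental was 0.315 (0.297 to 0.333) in cytoplasm and 0.537 (0.512 to 0.563) in nuclei. No single site carried these values, since the site with most reads held at most 4.90% of the reads of any comparison.

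ARHGEF28 clusters lay along the whole gene. With the gene cut into 4 equal parts from 5′ to 3′, there were 60, 34, 50 and 31 in parental cytoplasm, 33, 25, 25 and 12 in KRT19 KO cytoplasm, 61, 46, 64 and 39 in parental nuclei, and 56, 27, 38 and 23 in KRT19 KO nuclei. The part at the 3′ end had the fewest in each library. Of its sites, 17 were found in all 4 libraries, all intronic, including the site printed above with its run of C.

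**Figure D4:**
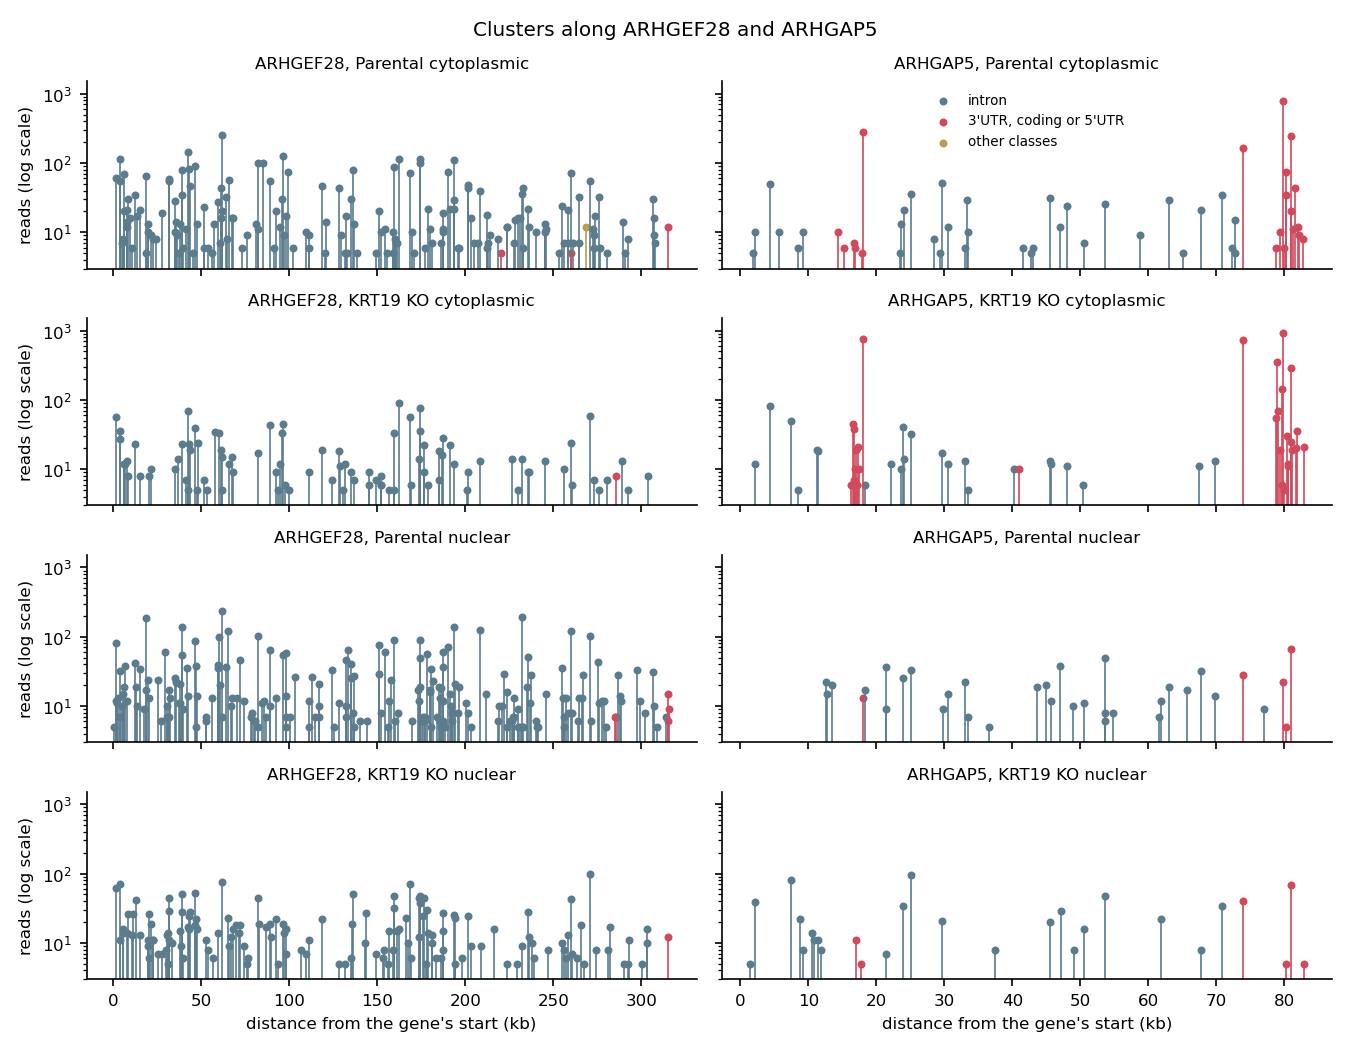
Reads of each cluster (vertical axis, log scale) against its distance in kb from the gene's start, for ARHGEF28 on the left and ARHGAP5 on the right, with 1 row of panels per library and colours by annotation class. ARHGEF28 clusters lay along all of its 316 kb in introns, while the ARHGAP5 clusters with most cytoplasmic reads were in coding exons and the 3′UTR.

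ARHGEF12 (LARG), ARHGEF11 (PDZ-RhoGEF) and ARHGEF1 (p115-RhoGEF) couple receptor-activated G proteins to RHOA. ARHGEF12, on the plus strand at chr11:120207122-120360646, had the highest density of the families at 2.02 clusters per kb. Its RPM was 417 in parental and 185 in KRT19 KO cytoplasm, and 609 and 416 in the nuclei. The ratio of cytoplasm to nucleus was 0.685 (0.645 to 0.726) in parental cells and 0.445 (0.411 to 0.481) in the KO, and KRT19 KO over parental cytoplasm was 0.444 (0.413 to 0.477). It differed from ARHGEF28 in its 3′UTR, which had 536 and 405 reads in the cytoplasmic libraries and 127 and 24 in the nuclear ones. ARHGEF1 had 5.76, 2.25, 51.7 and 38.1 RPM in the order of libraries used above. It was low in both cytoplasms, at 0.111 (0.0740 to 0.163) and 0.0591 (0.0314 to 0.103) times the nuclear value, on 32 and 14 cytoplasmic reads. Without its site with most reads the second ratio was 0.0927. All 3 genes were at least 2-fold lower in KRT19 KO cytoplasm than nucleus, as were 23 of 30 in the families and 38.0% of all genes. In parental cells 2 of the 3 were (31.3% of all genes). With exonic reads alone, ARHGEF12 and ARHGEF11 were higher in KRT19 KO cytoplasm than nucleus, at 5.66 and 1.36.

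ARHGEF2 (GEF-H1, a RHOA activator held on microtubules) and ARHGEF18 (p114RhoGEF, which acts at cell junctions) are relatives of ARHGEF28. ARHGEF2 had 89.0 and 131 RPM in parental and KRT19 KO cytoplasm and 329 and 334 in the nuclei, with the nuclear libraries above both cytoplasmic ones. Its cytoplasmic value in KRT19 KO cells was 1.47 (1.31 to 1.65) times that in parental cells. Without its site with most reads the ratio was 1.20. That site lies in the 3′UTR and is printed above, and the 3′UTR reads were 189, 534, 150 and 228. ARHGEF18 had 25.6, 34.3, 115 and 104 RPM, and its ratio of cytoplasm to nucleus in parental cells was 0.222 (0.182 to 0.270). It had few 3′UTR reads, 27, 20, 0 and 8.

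ARHGEF17 (TEM4, a RHOA activator tied to actin) had 11.9 and 29.1 RPM in parental and KRT19 KO cytoplasm and 96.1 and 118 in the nuclei. It was the 1 gene at least 2-fold higher in KRT19 KO than parental cytoplasm, at 2.45 (1.84 to 3.30) on 181 against 66 reads, and all of those reads were intronic. Both cytoplasmic values lay below the nuclear ones, at 0.124 (0.0935 to 0.161) and 0.246 (0.205 to 0.294) times, and the first was 0.0775 without its site with most reads. ARHGEF4 (Asef, which is activated by the tumour suppressor APC) had 7.75, 0, 13.3 and 29.2 RPM, all intronic, and was 2.2 (1.53 to 3.19) times as high in KRT19 KO as in parental nuclei, on 95 and 47 reads.

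Of the RhoGAPs, ARHGAP5 (p190B RhoGAP, a negative regulator of RHOA) had a cytoplasmic and exonic pattern. It lies on the plus strand at chr14:32545320-32628934 and had 2.01 clusters per kb. Its RPM was 411 in parental and 657 in KRT19 KO cytoplasm and 187 and 210 in the nuclei, so that both cytoplasmic libraries were above both nuclear ones. The ratio of cytoplasm to nucleus was 2.2 (2.02 to 2.40) in parental cells and 3.13 (2.88 to 3.40) in the KO. Without the site with most reads it was 1.49, under the 2-fold limit, in parental and 2.43 in KRT19 KO cells. Cytoplasmic KRT19 KO over parental was 1.60 (1.52 to 1.69). Introns held 23.1% and 10.3% of its cytoplasmic reads against 79.6% and 80.3% of its nuclear reads. Its 3′UTR had 1264, 1965, 94 and 79 reads and its coding exons 479, 1699, 41 and 56. With exonic reads alone the ratios of cytoplasm to nucleus were 8.27 and 14.2, and with intronic reads alone they were 0.640 (0.566 to 0.723) and 0.403 (0.354 to 0.459). Its paralog ARHGAP35 (p190A), named after its values were seen, had 57.1, 64.8, 94.7 and 184 RPM, with the KRT19 KO nuclear library highest.

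ARHGAP26 (GRAF1) and ARHGAP10 (GRAF2) belong to the GRAF proteins, which join membrane-bending and RhoGAP domains. ARHGAP26 spans 459 kb on the plus strand at chr5:142149942-142608576, with 0.807 clusters per kb. Its RPM was 264 in parental and 51.2 in KRT19 KO cytoplasm and 601 and 259 in the nuclei, and at least 97.5% of its reads were intronic in each library. KRT19 KO was lower than parental in both fractions, at 0.193 (0.171 to 0.219) in cytoplasm and 0.430 (0.397 to 0.466) in nuclei, and cytoplasm was lower than nucleus in both lines, at 0.440 (0.411 to 0.470) and 0.198 (0.173 to 0.225). ARHGAP10 had 70.6, 58.4, 203 and 253 RPM. Its cytoplasmic values were also below the nuclear ones, at 0.348 (0.307 to 0.394) and 0.231 (0.203 to 0.261), but KRT19 KO and parental lay closer, at 0.827 (0.715 to 0.956) in cytoplasm and 1.25 (1.13 to 1.38) in nuclei.

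ARHGAP24 (FilGAP), ARHGAP22 and ARHGAP25 are related proteins that turn RAC off. ARHGAP24 had 110 and 113 RPM in parental and KRT19 KO cytoplasm and 165 and 322 in the nuclei. The 2 cytoplasmic values lay within counting error of each other, with parental at 0.967 (0.866 to 1.08) times KRT19 KO, while the KRT19 KO nuclear value was 1.95 (1.76 to 2.17) times the parental one. ARHGAP22 ran the other way in nuclei, with 16.4, 4.34, 43.0 and 17.8 RPM and KRT19 KO over parental at 0.415 (0.301 to 0.565). ARHGAP25, best known from blood cells, had few reads, with 5.76, 1.61, 7.92 and 32.3 RPM. Its nuclear ratio of KRT19 KO to parental was 4.08 (2.67 to 6.43) on 105 and 28 reads, and KRT19 KO cytoplasm was 0.0498 (0.0232 to 0.0953) times the nuclear value.

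ARHGAP29, a RHOA GAP, had a flatter profile than ARHGAP21, a GAP for CDC42 at the Golgi. ARHGAP21 was at least 2-fold lower in KRT19 KO cytoplasm than nucleus. ARHGAP29 had 298, 214, 258 and 293 RPM, with ratios of cytoplasm to nucleus of 1.16 (1.07 to 1.26) in parental cells and 0.728 (0.670 to 0.792) in the KO. Its intronic share was 51.4% and 39.9% in the cytoplasmic and 80.7% and 81.4% in the nuclear libraries. ARHGAP21 had 173, 123, 241 and 255 RPM, at 0.715 (0.651 to 0.785) and 0.482 (0.436 to 0.532) times in cytoplasm. All of its nuclear reads were intronic, and its cytoplasmic coding reads were 28 in parental and 173 in KRT19 KO cells.

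ARHGAP32, a neuronal RhoGAP also present in other cells, had 145, 147, 161 and 180 RPM, with no ratio among the 4 past 2-fold. Its 3′UTR had 185 and 265 cytoplasmic reads against 24 and 0 nuclear ones, and its coding exons had 51, 205, 34 and 50. Thus the 3′UTR reads were mostly cytoplasmic while the gene's sum did not pass the limit. ARHGAP31 (CdGAP, a GAP for CDC42 and RAC1), named after its values were seen, had 12 3′UTR reads in parental and 249 in KRT19 KO cytoplasm, and its exonic ratio was 12.9 (8.0 to 22.1). A 3′UTR site with 178 reads in KRT19 KO and 0 in parental cytoplasm held much of this, and without the gene's site with most reads its ratio over all classes was 0.759 in place of 1.37.

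ARHGAP18, ARHGAP12 and ARHGAP11A were bound over their 3′UTRs in the cytoplasm. ARHGAP18, a GAP for RHOA, had 223 and 108 RPM in parental and KRT19 KO cytoplasm and 209 and 83.9 in the nuclei. KRT19 KO was lower in both fractions, at 0.483 (0.439 to 0.531) and 0.402 (0.349 to 0.463). Its 3′UTR reads were 765, 507, 63 and 7. Its ratios of cytoplasm to nucleus, 1.07 (0.976 to 1.17) and 1.28 (1.11 to 1.48), were 0.790 and 0.840 without its site with most reads. ARHGAP12, a RAC1 GAP, had 151, 116, 131 and 69.5 RPM and 444, 573, 20 and 54 3′UTR reads. Its KRT19 KO ratio of cytoplasm to nucleus, 1.67 (1.44 to 1.95), was 0.821 without the 3′UTR site printed above, which held 53.3% of the reads.

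ARHGAP11A, a RHOA GAP of dividing cells, had 179, 152, 215 and 139 RPM. Its intronic site printed above held 61.2% of the reads of the 2 parental libraries. Without that site the ratio of cytoplasm to nucleus was 3.66 in parental cells and 4.78 in the KO, against 0.833 (0.757 to 0.917) and 1.09 (0.972 to 1.22) with it. Its coding reads were 306, 465, 15 and 29 and its 3′UTR reads 205, 181, 0 and 0. ARHGAP11B is a partial copy of ARHGAP11A, and 10 of 148 clusters under its name lay inside its annotated interval, so the name is uncertain for these clusters. They had 208, 72.4, 431 and 306 RPM, mostly as processed transcript, and were lower in both cytoplasms, at 0.481 (0.446 to 0.520) and 0.237 (0.211 to 0.265).

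The remaining genes named by their ratios had fewer reads. ARHGAP1 (p50RhoGAP) had 19.8, 19.3, 11 and 71.6 RPM. Its KRT19 KO nuclear value was 6.5 (4.61 to 9.37) times the parental one, or 3.04 without its site with most reads. ARHGAP19 had 48.8, 7.24, 30.5 and 7.69 RPM and was lower in KRT19 KO cells, at 0.148 (0.106 to 0.204) in cytoplasm and 0.252 (0.156 to 0.392) in nuclei. Without its site with most reads the cytoplasmic ratio was 0.452. ARHGAP39 had 20.5, 12.1, 85.7 and 81.8 RPM, at 0.148 (0.113 to 0.191) times in KRT19 KO cytoplasm over nucleus. ARHGAP23 had 473 reads and ARHGAP27 171 reads in parental cytoplasm and 0 in each other library, and no fold is given for them.

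Overlapping clusters were merged over libraries into 3340 sites, counting any overlap of at least 1 nucleotide. Of these 78 (2.34%) were found in all 4 libraries, against 1.68% of 592021 sites of all genes and regions, and they held 19.0% of the families' reads. They comprised 62 intronic, 6 processed-transcript, 4 3′UTR, 3 nonsense-mediated decay, 2 coding and 1 5′UTR site. RhoGAPs and RhoGEFs had 39 each, spread over 25 genes, with 17 on ARHGEF28, 7 on ARHGEF12 and 6 each on ARHGAP29 and ARHGAP11B. The 6 under the uncertain name ARHGAP11B were neither intronic nor in a 3′UTR. A further 102 sites were found in both cytoplasmic and neither nuclear library, of which 17 lay in 3′UTRs and 71 in introns. They were 3.05% of the families' sites, against 3.84% of all sites. Both nuclear libraries alone shared 100 sites, 3 in 3′UTRs and 92 in introns, or 2.99% against 2.41%. Sites of a single library numbered 647 in parental and 409 in KRT19 KO cytoplasm, and 818 and 666 in the nuclei. They were 19.4%, 12.2%, 24.5% and 19.9% of the families' sites, against 19.2%, 15.9%, 21.0% and 21.2% of all sites.

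Whether a cluster recurred depended on its reads. In parental cytoplasm 25.9% of clusters with 5 to 9 reads overlapped a cluster of another library, and 91.6% of those with at least 50 reads did, against 24.2% and 89.0% over all genes. Over all read counts the shares were 46.1%, 52.1%, 38.7% and 40.5% in the 4 libraries, beside 43.5%, 47.0%, 38.0% and 36.8% for all clusters.

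Runs of C were about as frequent as in other clusters. The letters CCC, searched on the transcript strand of the cluster alone, were in 41.9% and 42.3% of the families' clusters in parental and KRT19 KO cytoplasm and 44.6% and 45.7% in the nuclei. Clusters of all genes with the same lengths held CCC in 39.7%, 40.1%, 45.4% and 44.7%. TCCC, which contains CCC, was in 31.5%, 29.7%, 32.6% and 33.5%, against 28.9%, 28.0%, 33.1% and 32.0%. The share of reads with a T-to-C conversion was 67.3%, 66.0%, 73.5% and 76.6%, against 66.4%, 59.6%, 72.9% and 76.7% over all clusters. Few intronic clusters lay within 100 nucleotides of a splice acceptor, 1.17%, 0.917%, 1.48% and 1.85%, against 1.74%, 2.05%, 2.69% and 2.91% over all genes. All cluster sequences of these genes were identical to the GRCh37 reference.

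Other parts of the pathway were read from lists. The 15 small GTPases of the RHOA, RAC1 and CDC42 family with a cluster are the substrates of both families. Beside the list counts below, 19.1% of all genes were at least 2-fold higher and 31.3% lower in parental cytoplasm than nucleus, and 26.1% and 38.0% in KRT19 KO cells. Of the GTPases, 6 of 11 were higher and 1 lower in KRT19 KO cells, with a median ratio of 2.39, and in parental cells 3 of 9 were higher and 4 lower, with a median of 0.869. CDC42 had 690 RPM in parental cytoplasm against 148 in KRT19 KO cytoplasm and 153 and 181 in the nuclei, and RHOA had 163, 188, 61.6 and 47.3. Of the RhoGDIs, which hold these GTPases in the cytosol, ARHGDIA had 20.2, 65.2, 10.2 and 4.0 RPM and ARHGDIB 58.4, 10.8, 15 and 3.07. The DOCK proteins, a separate family of activators, had 0 genes higher in cytoplasm in either line, and 2 of 7 lower in parental and 5 of 6 lower in KRT19 KO cells. DOCK5 had a ratio of cytoplasm to nucleus of 0.389 in parental and 0.309 in KRT19 KO cells, and DOCK1 of 0.361 and 0.166.

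Activators and GAPs with other names followed with mixed values. Of the other Dbl-family GEFs, 9 of 20 were lower and 2 higher in parental cytoplasm than nucleus, and 9 of 17 lower and 0 higher in KRT19 KO cells. TRIO, which activates RAC1 and RHOG, had 1131 and 904 RPM in the cytoplasmic and 2618 and 2581 in the nuclear libraries, and ECT2, the GEF of cytokinesis, had ratios of cytoplasm to nucleus of 0.817 and 0.673. Of the other RhoGAPs, 4 of 20 were lower and 3 higher in parental cells, and 8 of 20 lower and 4 higher in KRT19 KO cells. SRGAP1 had 0.715 and 0.532. RACGAP1, which acts with ECT2, had 110, 1100, 524 and 203 RPM, highest in KRT19 KO cytoplasm. Of the effectors of these GTPases, 13 of 29 were lower and 2 higher in parental cells, and 16 of 27 lower and 3 higher in KRT19 KO cells, with DIAPH3, a formin that builds actin filaments, at 0.490 and 0.318 and the kinase CDC42BPA at 0.511 and 0.290.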

How the data were processed

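PAR-CLIP clusters of 4 libraries were analysed, and 17 RNA-seq samples were not analysed here. The authors demultiplexed reads with bcl2fastq and cutadapt, aligned them to hg19 and called clusters with PARpipe and PARalyzer, and deposited for each cluster its read count, unique read count, conversion counts, gene and annotation class. From these counts, reads were summed per gene and class and divided by the reads in all clusters of the library (RPM). Ratios needed 100 reads in both libraries together, and 2-fold was the limit for a call. With 1 library per condition no test was run. Genes named are the 10 with most clusters, the 8 with most 3′UTR reads, the 3 highest and 3 lowest ratios of each comparison and the 2 genes of each pathway list with most reads. The members and lists were chosen with earlier results of these data known. Python 3.11.15, pandas 2.3.3 and scipy 1.17.1 were used, and the ratio and interval code was tested on simulated data. Depth was 3252800 to 6216226 reads per library. Alternatives were read and conversion minimums, unique reads, other scalings, other gene minimums and left-out sites, genes or classes. Values of some items are not reported here.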

Additional observations from a re-analysis of the deposited data

How the results depend on the processing

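No paired analysis was possible because each condition had 1 library and no test was run. With clusters of at least 10 reads, the families had 616, 428, 794 and 664 clusters in parental cytoplasm, KRT19 KO cytoplasm, parental nuclei and KRT19 KO nuclei, and with at least 2 conversion locations 542, 520, 429 and 269. The 3′UTR share of clusters was 8.77% and 15.9% in parental and KRT19 KO cytoplasm at 10 reads, 8.49% and 12.9% (and 3.35% in KRT19 KO nuclei) at 2 conversion locations, and 18.5% and 29.6% when weighted by reads. CCC was in 45.8% and 46.7% of cytoplasmic clusters at 10 reads and in 46.1%, 46.3%, 55.5% and 61.0% of clusters at 2 conversion locations, and TCCC was in 31.5%, 29.7%, 32.6% and 33.5%. The share of reads was 0.455% in parental cytoplasm with unique reads, 0.471% and 0.297% in parental and KRT19 KO cytoplasm without the library's largest cluster, 0.306% and 0.588% in KRT19 KO cytoplasm and nuclei without mitochondrial clusters, and 0.430%, 0.277%, 0.682% and 0.554% without the families' largest cluster. Sites in all 4 libraries numbered 51 from clusters of at least 10 reads. Genes past 2-fold in parental cytoplasm over nucleus became 5 higher and 8 lower with the median gene at a ratio of 1, those in KRT19 KO cells 2 higher, and those of KRT19 KO over parental nuclei 5 higher, or 1 higher with at least 200 reads. The other settings below were chosen after seeing the data. Without ARHGEF28 the share of reads was 0.360%, 0.265%, 0.553% and 0.486%, and without ARHGAP23 and ARHGAP27 it was 0.432% in parental cytoplasm, where 1 gene was then higher than in the nucleus. With 3′UTR, coding and 5′UTR clusters alone, 9 genes were higher and 0 lower in parental cytoplasm over nucleus, 10 and 0 in KRT19 KO cells, 6 and 2 in KRT19 KO over parental cytoplasm, and 0 and 1 in the nuclei. With intronic clusters alone, 0 were higher in KRT19 KO cytoplasm over nucleus. The class settings hold fewer genes by construction, and for the other moves the cause was not tested. No gene ratio past 2-fold crossed 1 with unique reads, with median scaling or without the gene's site with most reads, but with exonic reads alone ARHGEF12, ARHGAP35, ARHGAP21, ARHGEF2 and ARHGEF11 turned from lower to higher in KRT19 KO cytoplasm over nucleus, and ARHGEF11 to 1.05 in parental cells. With intronic reads alone ARHGAP5 turned from higher to lower in both lines (0.640 and 0.403). Ratios short of 2-fold crossed 1 without the site with most reads for several genes, among them ARHGAP19 (0.525) and ARHGAP1 (0.866) in parental cytoplasm over nucleus. Of the planned settings 45 left these results within their limits and 40 did not, and for single genes 107 did and 69 did not. Depth limited genes under 100 reads, which have no ratio.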
